A study of Mus musculus with 13 samples.

Results

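Binding sites of the glucocorticoid receptor (GR) were set against those of the corepressor NCOR1 in livers of control mice treated with dexamethasone. The GR list held 40853 peaks and the NCOR1 list 37700 peaks, each 200 bp wide. A site was called joint when a GR peak and an NCOR1 peak shared at least 1 bp, and every joint site paired 1 GR peak with 1 NCOR1 peak. This gave 19989 joint sites, 20864 GR-only sites and 17711 NCOR1-only sites, 58564 sites in all, out of 217044 peaks in the 7 lists of the series. Joint sites made up 48.9% of the GR list (95% Clopper-Pearson interval 48.4 to 49.4%) and 53.0% of the NCOR1 list (52.5 to 53.5%). The intervals given here cover counting error only, since each list pools its libraries and peaks are not replicates.

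The animals behind both lists were male mice labelled GFP, called control in the titles, that received dexamethasone, a synthetic glucocorticoid, by intraperitoneal injection at 1 mg/kg at zeitgeber time 8. Livers were frozen 2 h later, at zeitgeber time 10. Beside them the study has mice labelled CRE, called dKO in the titles, given dexamethasone or vehicle (saline in the design text), and control mice given vehicle. The promoter that drives Cre, the strain and the age of the mice are not given in the sources used here. Whole liver was used, so fewer cells of a type and less binding per cell cannot be told apart. Each of the 2 lists pooled 2 libraries before peaks were called. No value per library exists, and no test over samples could be made. The comparisons below are therefore descriptions, and peaks are not counted as replicates.

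GR is a nuclear receptor that enters the nucleus on binding a glucocorticoid and sits on DNA as a dimer at glucocorticoid response elements, a pair of inverted half-sites set apart by a short spacer. It also occupies chromatin next to other factors. In liver its targets include genes of gluconeogenesis, amino acid breakdown and the acute phase. NCOR1 does not itself bind DNA. It is brought to chromatin by nuclear receptors and other factors, and holds the histone deacetylase HDAC3, the TBL1-type proteins and GPS2 in a corepressor complex that is best known for silencing targets of unliganded thyroid hormone and retinoid receptors and of REV-ERB proteins.

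The stretches below are examples picked for holding a motif, and they do not stand for the DNA of their class. They come from RefSeq promoter sequences (GRCm38.p6, which is mm10) whose window around the annotated start held the centre of a peak. Capitals mark the core of a glucocorticoid response element, GNACANNNTGTNC, which reads the same on both strands. Only 1.80% of the promoter windows with a joint site and 2.09% of those with a GR-only site held this core. The first set is the 6 joint sites with the highest GR tag counts among those with a core upstream of the start.

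A230028O05Rik, chr16:25059389-25059444, plus strand: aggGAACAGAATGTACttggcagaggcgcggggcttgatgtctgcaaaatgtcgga
Slc10a6, chr5:103629514-103629606, minus strand: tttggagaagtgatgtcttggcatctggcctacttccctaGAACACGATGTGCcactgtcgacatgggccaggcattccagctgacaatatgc
Map3k6, chr4:133240597-133240689, plus strand: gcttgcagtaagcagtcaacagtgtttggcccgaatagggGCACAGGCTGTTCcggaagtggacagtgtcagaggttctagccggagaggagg
Gm16573, chr14:56620641-56620733, minus strand: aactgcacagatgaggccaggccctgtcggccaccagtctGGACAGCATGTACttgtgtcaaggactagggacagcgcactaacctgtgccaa
Acnat2, chr4:49408200-49408292, minus strand: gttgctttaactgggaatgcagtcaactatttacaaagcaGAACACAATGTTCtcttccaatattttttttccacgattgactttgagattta
Fam107a, chr14:8309845-8309937, minus strand: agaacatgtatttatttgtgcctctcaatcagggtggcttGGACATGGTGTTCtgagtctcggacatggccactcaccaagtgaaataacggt

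The next set is the strongest pair of GR-only promoter sites with a core, at Mt1, which encodes a metallothionein, and Sgk1, which encodes a serum- and glucocorticoid-regulated kinase.

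Mt1, chr8:94178955-94179047, plus strand: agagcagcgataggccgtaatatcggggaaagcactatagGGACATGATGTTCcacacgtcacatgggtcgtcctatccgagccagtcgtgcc
Sgk1, chr10:21993662-21993754, plus strand: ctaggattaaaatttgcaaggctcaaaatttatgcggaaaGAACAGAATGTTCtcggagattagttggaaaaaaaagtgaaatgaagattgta

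The last set is the strongest pair of NCOR1-only promoter sites with a nuclear receptor half-site, AGGTCA on either strand, in capitals.

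Alkbh7, chr17:56997135-56997220, plus strand: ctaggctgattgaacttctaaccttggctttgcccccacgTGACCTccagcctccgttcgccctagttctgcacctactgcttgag
Slc25a47, chr12:108850936-108851021, plus strand: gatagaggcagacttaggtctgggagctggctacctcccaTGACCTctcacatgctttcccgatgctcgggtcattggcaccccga

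At the joint A230028O05Rik site the core lay 7 bp from the GR centre and 5 bp from the NCOR1 centre, with 348.7 GR tags and 40.5 NCOR1 tags, each list being scaled to 10 M tags. This normalized tag count is the strength measure used throughout. At the Slc10a6 site the core lay 3 bp from the GR centre and 30 bp from the NCOR1 centre. At Fam107a the distances were 5 bp to the GR centre and 50 bp to the NCOR1 centre. Acnat2, which encodes a peroxisomal acyltransferase, held 105.6 GR tags and 26.3 NCOR1 tags, with the core 11 bp from the GR centre and 12 bp from the NCOR1 centre. The Mt1 core lay 4 bp from the centre of a GR peak of 173.3 tags, and the Sgk1 core lay 7 bp from one of 90.2 tags. Neither had an NCOR1 peak under dexamethasone, whereas the NCOR1 control vehicle list held 69.5 tags at the Mt1 site and 16.9 at the Sgk1 site. The Alkbh7 half-site lay 39 bp from the centre of an NCOR1 peak of 83.4 tags, and the Slc25a47 one 64 bp from a centre of 63.8 tags. The NCOR1 dKO vehicle list held 59.5 tags at the Alkbh7 site and no peak at the Slc25a47 site.

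The whole series has 12 ChIP libraries and 1 input library that served every list. Total tags per list ranged between 17.5 and 36.9 M. The GR dexamethasone list drew on 30.03 M tags and had 7.23% of them in peaks, and the NCOR1 dexamethasone list drew on 36.9 M with 6.38% in peaks. The tag threshold of peak calling was 15 in the GR list, where it was set. It was 16 in the NCOR1 list, where it was found at a false discovery rate of 0.001. These thresholds are not floors of the normalized tag count, whose minimum was 4.16 in the GR list and 3.66 in the NCOR1 list. For GR, 3 antibodies were combined. GR libraries were made without size selection and their tag directories are named for high sonication, while size selection was used for NCOR1 and input libraries. Antibody, library preparation and threshold thus differ together between the lists, and their part in the classes was not tested.

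Joint sites were the stronger ones in both lists. The median GR tag count was 13.8 at joint sites (quartiles 8.99 and 23.3) and 11.0 at GR-only sites (7.66 and 14.8). The median NCOR1 tag count was 14.8 at joint sites (9.62 and 24.7) and 10.0 at NCOR1-only sites (6.91 and 15.3). Fold over the surrounding 10 kb, a measure of how far a peak stands out, ran the other way for GR, with a median of 7.88 at joint sites and 8.96 at GR-only sites. For NCOR1 it was 8.33 at joint sites and 6.20 at NCOR1-only sites. The ranges overlapped widely in every case.

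Each list was cut into 5 quintiles of equal size by tag count. Of the strongest GR quintile, 72.4% of peaks were joint, followed by 50.4%, 39.4%, 44.0% and 38.4% of the weaker quintiles in order. The GR share was thus high in the first quintile and lay between 38.4 and 44.0% in the last 3, without a steady order. Of the strongest NCOR1 quintile, 74.9% were joint, followed by 60.3%, 52.8%, 43.7% and 33.4%, so this share was lower at every step. Of the 100 strongest peaks, 88.0% were joint in the GR list and 85.0% in the NCOR1 list. At the edge of the rule, 7 joint pairs shared a single base, the strongest of them in Ank3 with 64.3 GR tags and 19.2 NCOR1 tags. A further 6 pairs missed by the smallest possible gap, with centres 201 bp apart and medians of 9.48 GR tags and 11.5 NCOR1 tags.

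**Figure D1:**
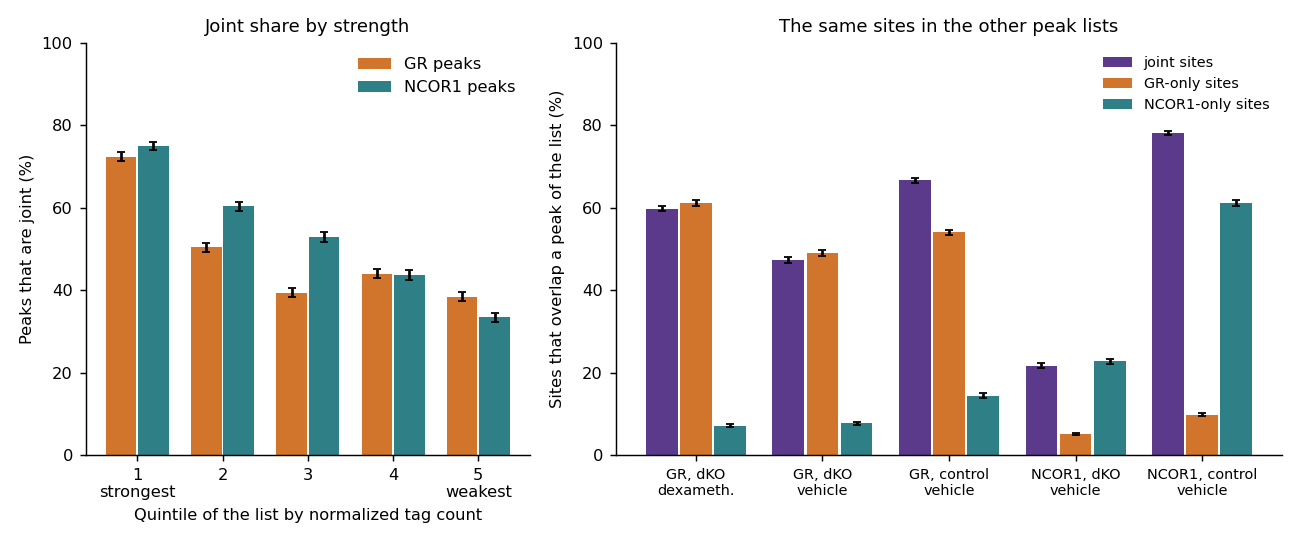
Left, percentage of GR and NCOR1 peaks that were joint, by quintile of each list by normalized tag count. Right, percentage of joint, GR-only and NCOR1-only sites that overlapped a peak of 5 lists not used to define them, joint sites being taken by their GR peak. Bars give the share and error bars the 95% Clopper-Pearson interval; joint and GR-only sites were close to each other in the GR dKO lists, and joint sites stood far above GR-only sites in the NCOR1 control vehicle list, at 78.2% and 9.85%.

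The joint site with the best combined rank lay inside Cdkn1a, which encodes the cell cycle inhibitor p21, on chromosome 17 from 29094608 to 29094808 (mm10). It had 303.2 GR tags and 204.3 NCOR1 tags, with centres 18 bp apart. A site inside Foxp1, which encodes a forkhead repressor, had 270.2 GR tags and 103.3 NCOR1 tags. A site 51.3 kb from Rxra, the gene of the retinoid X receptor that partners many nuclear receptors, had 186.5 GR tags and 94.3 NCOR1 tags. The other joint sites among the first 10 lay nearest to Gm5148, Tsku, Cipc, Pim3, Sfxn2 and Cemip2, and 1 had no protein-coding gene within 100 kb. Over these 10 sites the GR tag count ranged from 101.7 to 303.2 and the NCOR1 tag count from 79.2 to 204.3. All 10 had a peak in each of the 3 other GR lists and in the NCOR1 control vehicle list. The NCOR1 dKO vehicle list held a peak at all of them but the Tsku site, with up to 51.5 tags.

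The highest GR count of a joint site, 777.6, lay inside Klf13, which encodes a Kruppel-like factor, on chromosome 7 from 63896967 to 63897167, with 53 NCOR1 tags. The other GR lists held 536.4 tags there in dKO livers with dexamethasone, 433.8 in dKO livers with vehicle and 724.8 in control livers with vehicle. Fkbp5 differed in this respect. Under dexamethasone its strongest joint site had 350.9 GR tags in dKO livers and 595.6 in control livers. Under vehicle it had 66 in dKO livers and 335.3 in control livers. At Klf9, the gene of another glucocorticoid-responsive Kruppel-like factor, a pair of joint sites 5.27 and 6.14 kb from the gene had 187.8 and 179.5 GR tags, with 55.3 and 60.3 NCOR1 tags. At Igfbp1, which encodes an insulin-like growth factor binding protein made by liver, both sites were joint, with 77.4 and 42.8 GR tags and 70.2 and 48.8 NCOR1 tags. Sik1, a salt-inducible kinase gene, held a GR-weighted joint site (73.1 GR tags, 19.4 NCOR1 tags) and an NCOR1-weighted one (18.1 and 80), 0.513 and 6.49 kb from the gene.

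The strongest GR-only site lay 12.7 kb from Armc12 on chromosome 17 with 512.3 GR tags, and the nearest NCOR1 peak was 4.98 kb away. The second lay inside Tat, which encodes tyrosine aminotransferase, a classical glucocorticoid-induced liver enzyme, with 291.9 tags. Others of the first 8 were at Anapc16 (286.9 tags), Mapk13 (274.4), Midn (233.4), Zbtb16 (233.3), Cdk17 (223.6) and Ttc39c (215.6). At the Mapk13 site an NCOR1 peak lay only 282 bp away centre to centre, so this site missed the rule narrowly. Of the 8, those at Armc12, Midn and Zbtb16 had a peak in the NCOR1 control vehicle list, with 37.4, 33.8 and 37.4 tags.

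NCOR1-only sites were led by a peak of 235.4 tags in 1700010I14Rik, 57.5 kb from the nearest GR peak, which also had 98.8 NCOR1 tags in the dKO vehicle list. Next came Adcy1, which encodes an adenylate cyclase, with 191.4 tags, and a site inside Zbtb16, a zinc finger repressor gene induced by glucocorticoids, with 163.9. Ppard, the gene of the fatty acid receptor PPAR delta, had 160.8 tags, Loxl4 160.1, Ehhadh, a peroxisomal beta-oxidation gene, 152.6, Bcl6, a transcriptional repressor gene, 148.3, and Pim3 145.3. All 8 were also in the NCOR1 control vehicle list, with 93.4 to 234.6 tags. Except at Ehhadh, the NCOR1 dKO vehicle list held a peak at these sites too, with 12.6 to 98.8 tags. Of the 8, those at Loxl4, Ehhadh, Pim3 and Zbtb16 had no peak in any of the 3 other GR lists.

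At joint sites the centres of the GR and NCOR1 peaks lay close together, within the limit of 200 bp that the overlap rule sets. The median distance between centres was 28.0 bp (quartiles 13.0 and 54.0 bp), 72.9% of pairs lay within 50 bp, and 8.42% were over 100 bp apart. The signed offset had a median of -1 bp, so neither protein lay to one side along the genome. The offset was smaller at strong sites, with a median of 23.0 bp where both peaks were in the strongest quintile of their lists and 38 bp where both were in the weakest. Joint sites within 1000 bp of an annotated start had a median offset of 38 bp, against 27 bp for those farther away. Along the direction of transcription the GR centre lay downstream of the NCOR1 centre at 50.0% of the start-proximal sites. At joint sites where the NCOR1 dKO vehicle list also held a peak the median was 34.0 bp, and 27 bp at those where it did not.

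GR and NCOR1 tag counts rose and fell together across joint sites, with Spearman's rho of 0.54 over 19989 sites. The sites share 2 pooled lists and 1 input library, and this is a description across sites with no p. Tags of the input library at the same sites correlated with the GR count at 0.31 and with the NCOR1 count at 0.35. The median NCOR1 tag count stepped down from the strongest to the weakest GR quintile, at 23.8, 17.6, 14.2, 11.2 and 8.26. Within a single GR quintile the correlation was weak, between 0.08 in the strongest and 0.27 in the weakest. Fold over the surrounding 10 kb gave 0.40 in place of the tag count. For scale, GR dexamethasone and GR vehicle counts correlated at 0.77 over the 13307 joint sites held by both, and NCOR1 dexamethasone and vehicle counts at 0.79 over 15716.

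**Figure D2:**
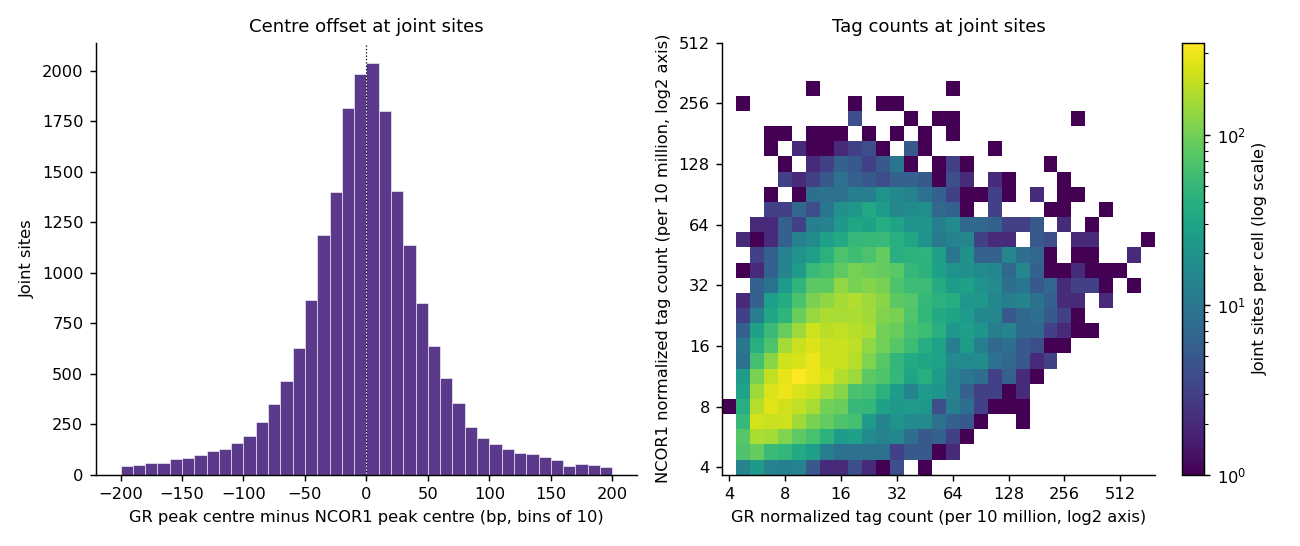
Left, number of joint sites by GR peak centre minus NCOR1 peak centre, in bins of 10 bp; the 19989 pairs centre on 0. Right, GR and NCOR1 normalized tag counts at joint sites on log2 axes, with the number of sites per cell in colour on a log scale; the cloud runs upward (rho 0.54) and the highest GR counts have moderate NCOR1 counts.

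Some joint sites were strong for one protein and near the threshold for the other. The most GR-sided sites lay at Hpse2, with 68.6 GR tags and 5.01 NCOR1 tags, Fam180a (59.4 and 5.15), Slc44a1 (62.1 and 5.28), Gm9949 (81.4 and 5.82) and Piwil4 (52.0 and 4.88). None of these 5 had a peak in either of the other NCOR1 lists. The most NCOR1-sided site lay inside Mad1l1, with 5.16 GR tags and 249.1 NCOR1 tags, rank 5 of the NCOR1 list. Smyd3 followed with 4.66 GR tags and 50.5 NCOR1 tags, then Ice1 (5.33 and 55.0), Cep350 (5.16 and 49.8) and Adprhl1 (5.33 and 49.2). At Npas2, the gene of a clock transcription activator, a site 0.762 kb from the gene had 11.3 GR tags and 289.9 NCOR1 tags. At Irs2, which encodes an insulin receptor substrate, a site 44.6 kb from the gene had 64.6 GR tags and 316.1 NCOR1 tags. This was the highest NCOR1 count among joint sites. In the NCOR1 dKO vehicle list the Irs2 site held 60.4 tags and the Npas2 site 124.8. That list also held 16.9 tags at Mad1l1, 32.6 at Ice1 and 22.6 at Cep350, and no peak at Smyd3 or Adprhl1.

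NCOR1-only sites lay nearest to genes. Within 1000 bp of an end of a protein-coding gene were 12.5% of joint sites (95% interval 12.0 to 13.0%), 12.4% of GR-only sites (11.9 to 12.8%) and 22.3% of NCOR1-only sites (21.7 to 22.9%). The median distance to the nearest gene end was 17.3 kb for joint, 20.2 kb for GR-only and 10.1 kb for NCOR1-only sites. The excess was at starts. Within 250 bp of an annotated start lay 8.02% of joint, 5.64% of GR-only and 15.2% of NCOR1-only sites, while 4.12%, 4.11% and 5.61% of the same classes were within 1000 bp of a gene end but of no start. Sites on chromosome 18 were not analysed for starts. Inside a gene body lay 54.4% of joint, 56.6% of GR-only and 56.7% of NCOR1-only sites.

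The side of the start differed as well. Of the sites within 1000 bp of a start, 55.2% of 2457 joint, 39.5% of 2423 GR-only and 50.9% of 3749 NCOR1-only sites had their centre upstream of it. GR-only sites were thus mostly downstream of the start in this window. Among joint sites, 8.02% of those in the strongest GR quintile and 16.6% of those in the weakest lay within 1000 bp of a start. Among GR-only sites the shares were 11.1% in the strongest and 10.1% in the weakest quintile. More than 50 kb from a start were 23.4% of joint sites in the strongest and 24.8% in the weakest quintile, and 22.6% of GR-only sites in the strongest and 32.3% in the weakest. More than 50 kb from any start were 24.0% of joint, 29.6% of GR-only and 19.3% of NCOR1-only sites.

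**Figure D3:**
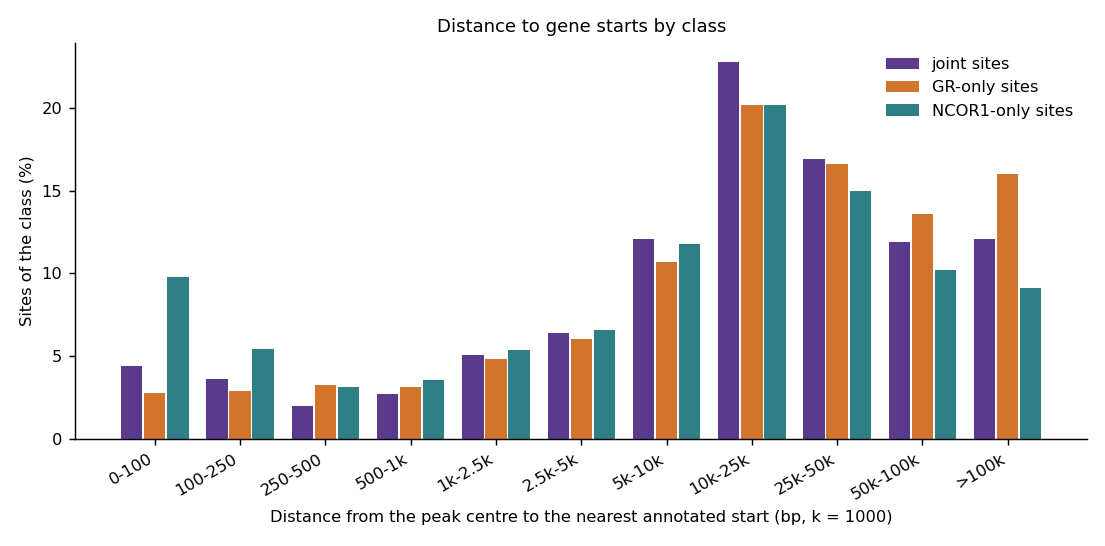
Percentage of joint, GR-only and NCOR1-only sites by distance from the peak centre to the nearest annotated start, in 11 bins; sites without a start in the table are left out. NCOR1-only sites stand highest in the bin next to the start (9.76%, against 4.42% of joint and 2.74% of GR-only sites), and GR-only sites stand highest beyond 100 kb (16% of them).

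Promoter windows, 250 bases before to 50 after a start, were searched for 4 motifs on both strands. The core GNACANNNTGTNC was in 1.80% of the 1110 windows that held a joint site (20 windows), 2.09% of the 621 with a GR-only site (13 windows) and 0.163% of the 1840 with an NCOR1-only site (3 windows), beside 0.475% of all 32851 windows. The half-site AGGTCA, which nuclear receptors bind, was in 23.1% of joint, 11.1% of GR-only and 15.5% of NCOR1-only windows, beside 16.3% of all. TTGCNNAA, a pattern of C/EBP-type sites, was in 19.1% of joint, 9.02% of GR-only and 9.18% of NCOR1-only windows, beside 10.8% of all. The CCAAT box was found at similar shares, 34.9% of joint, 31.4% of GR-only and 34.3% of NCOR1-only windows, beside 37.4% of all. The median GC content was 56.7% in joint, 62.7% in GR-only and 61.7% in NCOR1-only windows, beside 52.7% in all, and its part in the motif shares was not tested.

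At the 20 joint promoter sites with a core, the core lay a median of 11.5 bp from the GR centre and 47.0 bp from the NCOR1 centre. It was nearer to the GR centre at 17 of 20. Joint sites were placed in promoter windows by their GR centre, whereas the NCOR1 centre could lie outside the searched window. This choice favours a short distance to the GR centre, and its part in the difference was not tested. The median GR tag count of these 20 sites was 68.6, against 11.0 for all joint sites in promoter windows. Their median NCOR1 tag count was 15.1 against 13.7. A match describes the letters in a window and is not a measured contact.

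Sites were then looked up in the 5 lists that the classes did not use. In control livers given vehicle, the NCOR1 list covered 78.2% of joint sites by their GR peak, 9.85% of GR-only sites and 61.1% of NCOR1-only sites. GR peaks of the vehicle list covered 66.6% of joint, 54.0% of GR-only and 14.4% of NCOR1-only sites. In dKO livers given dexamethasone, the GR list covered 59.8% of joint and 61.2% of GR-only sites, and in dKO livers given vehicle 47.4% of joint and 49.0% of GR-only sites. The NCOR1 dKO vehicle list, with 17282 peaks and 2.07% of tags in them, covered 22.1% of joint sites by their NCOR1 peak and 22.8% of NCOR1-only sites. About that share of NCOR1 peaks was thus also called in livers labelled dKO. The lists differ in depth and in libraries pooled, with 1 library each for NCOR1 vehicle and NCOR1 dKO.

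Of the joint sites, 11793 (59.0%) had both a GR and an NCOR1 peak under vehicle in control livers. A further 3923 (19.6%) had NCOR1 alone under vehicle, 1514 (7.57%) had GR alone and 2759 (13.8%) had neither. The median GR tag count under dexamethasone was 17.0 at sites with both, 9.66 where NCOR1 alone was called under vehicle, and 19.6 where GR alone was.

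At sites that both GR control lists held, GR counts with and without dexamethasone differed in opposite directions between the classes. The vehicle list held 66.6% of joint and 54.0% of GR-only sites. Sites without a vehicle peak have no vehicle count and were left out, so the directions do not describe the whole classes. The lists were normalized separately, each to 10 M tags, and the dexamethasone count helped to define the sites. The vehicle list also had a smaller share of all its tags in peaks than the dexamethasone list. The part of this difference in the directions was not tested. At the 13307 joint sites held by both GR lists, the median was 17.2 tags under dexamethasone and 12.7 under vehicle, and the dexamethasone count was the higher at 77.0% of sites. At the 11272 GR-only sites held by both, the median was 12.5 under dexamethasone and 16.2 under vehicle, and the dexamethasone count was the higher at 25.4%. Over all GR peaks held by both lists the share was 53.3%. The median log2 ratio of dexamethasone over vehicle was 0.38 at joint sites (quartiles 0.03 and 0.77) and -0.38 at GR-only sites (-0.65 and 0.01).

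The split among GR-only sites ran along strength, which is itself set by the dexamethasone count. In the strongest quintile the dexamethasone count was the higher at 92.8% of joint and 77.3% of GR-only sites. In the next quintile the shares were 80.1% of joint and 25.3% of GR-only sites, and in the middle quintile 72.0% of joint and 13.8% of GR-only sites. In the weakest quintile they were 31.7% of joint and 16.2% of GR-only sites. That quintile spans 4.16 to 7.49 dexamethasone tags, and only 35.3% of its joint and 23.1% of its GR-only sites had a vehicle peak. A low dexamethasone count and a called vehicle peak were both required there. This favours a higher vehicle count, and its part in the shares was not tested. Among the 3847 GR-only sites with 16 to 32-fold over the local region, the median was 13.7 tags under dexamethasone and 18.2 under vehicle, 88.4% were in the vehicle list and 94.8% in the dKO dexamethasone list. Among the 2077 joint sites of the same fold, the medians were 41.0 and 20.6. Of these joint sites, 90.9% were in the vehicle list and 94.2% in the dKO dexamethasone list.

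**Figure D4:**
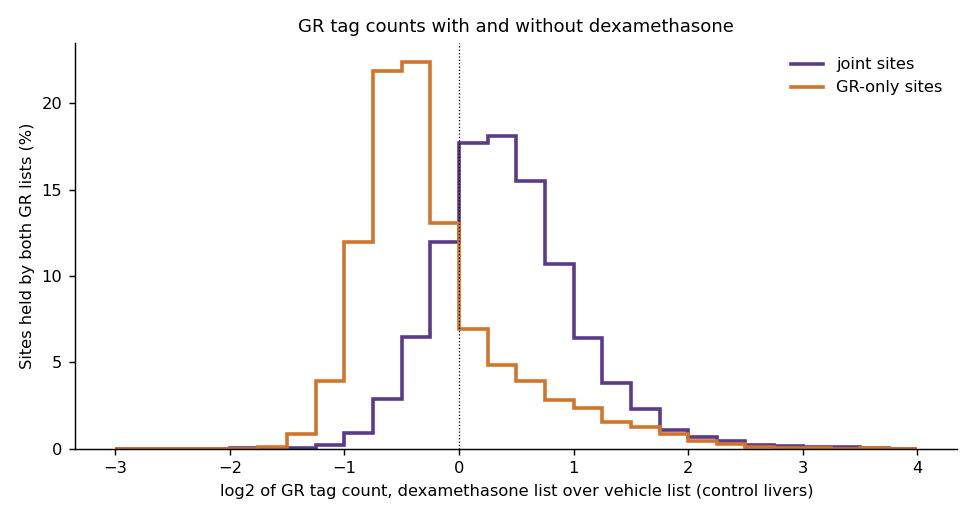
Distribution of the log2 ratio of GR tag counts, dexamethasone list over vehicle list in control livers, as the percentage of sites in bins of 0.25, for joint sites and GR-only sites that both lists hold. Joint sites centre at 0.38 and GR-only sites at -0.38, with a shoulder of GR-only sites above 0.

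Control dexamethasone counts were also set against the dKO lists. At sites held by both dexamethasone lists, the median GR count was 12.4 in dKO and 19.0 in control livers for joint sites, and 10.5 in dKO and 12.7 in control livers for GR-only sites. The control count was the higher at 89.2% of joint and 77.6% of GR-only sites, so both classes leaned the same way. Against the dKO vehicle list, which differs in genotype and treatment together, the control dexamethasone count was the higher at 90.9% of joint and 21.4% of GR-only sites, and the classes leaned opposite ways. At sites held by both NCOR1 control lists, NCOR1 dexamethasone counts were the lower in both classes. The median was 17.2 tags under dexamethasone and 21.4 under vehicle at joint sites. It was 12.2 under dexamethasone and 16 under vehicle at NCOR1-only sites. The dexamethasone count was the higher at 31.3% of joint and 24.3% of NCOR1-only sites, beside 28.5% of all NCOR1 peaks held by both lists. The NCOR1 tag threshold was 16 of 36.91 M tags under dexamethasone and 11 of 17.77 M under vehicle. The lists also differed in the share of all tags in peaks. It was 6.38% for NCOR1 under dexamethasone and 8.52% under vehicle, the latter from 1 library. For GR it was 7.23% in control and 4.11% in dKO livers with dexamethasone, and 3.40% in dKO livers with vehicle. The GR share in control livers with vehicle lay between 4.11 and 7.23%, below that of control livers with dexamethasone. The part of these thresholds and shares in the count differences was not tested.

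Sites were assigned to protein-coding genes by the closest gene body, up to 100 kb away. Of 21887 genes, 7775 (35.5%) carried at least 1 joint site, 9137 (41.7%) at least 1 GR-only site, 8708 (39.8%) at least 1 NCOR1-only site and 13902 (63.5%) any site. All 3 classes met at 3674 genes, whose bodies had a median length of 58.6 kb. Joint sites alone were carried by 1477 genes, GR-only sites alone by 2478 and NCOR1-only sites alone by 1903, with median bodies of 13.8, 22.1 and 13.5 kb. The 7985 genes with no site had a median body of 6.93 kb.

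The genes with most joint sites were long ones: Arid1b, which encodes a chromatin remodelling subunit, had 27, and Lpp, Rora and Zbtb20 had 25 each, Nfia 24 and Arhgap26 22. Foxp1 carried most GR-only sites (22), beside 11 joint ones. Zmiz1, a coregulator gene, carried most NCOR1-only sites (22), beside 11 joint ones. Ephb2, an ephrin receptor gene, stood out with 17 NCOR1-only sites, 2 GR-only sites and 0 joint sites.

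Of 255 genes in 15 lists drawn from liver pathways and cell type markers, 182 (71.4%) carried a joint site, beside 35.5% of all genes. The counts below are to be read beside the shares over all genes, 35.5% for a joint, 41.7% for a GR-only and 39.8% for an NCOR1-only site. Genes of known glucocorticoid response held joint sites at 22 of 26. Fkbp5, the gene of a GR co-chaperone, had a joint site of 595.6 GR tags and 33.6 NCOR1 tags, and Zbtb16 one of 547.6 GR tags and 36 NCOR1 tags. Mt1 had 4 GR-only sites, 1 NCOR1-only site and 0 joint sites. Mt2, of the same list, had 2 joint sites and no others, with up to 192.5 GR tags and up to 68.4 NCOR1 tags. The closest-body rule gives each site to 1 gene only. Cebpd had 1 NCOR1-only site of 18.4 tags, and Lcn2 had no site.

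Gluconeogenic genes held joint sites at 17 of 20. Pck1, which encodes the enzyme PEPCK, had a joint site 0.312 kb from the gene with 49.1 GR tags and 72.5 NCOR1 tags. G6pc, which encodes glucose-6-phosphatase, had 5 joint, 1 GR-only and 2 NCOR1-only sites, and the joint site 0.150 kb from it had 27.1 GR tags and 68.8 NCOR1 tags. At Tat the counts were 2 joint, 3 GR-only and 1 NCOR1-only sites. Ppargc1a, the gene of the coactivator PGC-1 alpha, had 13 joint, 12 GR-only and 2 NCOR1-only sites, the strongest joint one with 73.3 GR tags and 10.6 NCOR1 tags.

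Insulin signalling and glycogen genes held joint sites at 15 of 17, and 78.6% of their GR sites were joint, beside 50.0% over all genes. Pik3r1, which encodes the regulatory subunit of phosphoinositide 3-kinase, had 18 joint sites and 1 GR-only site. Irs2 had 14 joint, 4 GR-only and 10 NCOR1-only sites. Ptpn1, the gene of a phosphatase that acts on the insulin receptor, had a joint site of 626.2 GR tags. Bile acid and cholesterol genes held joint sites at 18 of 20 with 77.6% of GR sites joint, and Cyp7a1, which encodes the enzyme that limits the rate of bile acid formation, had 5 joint, 1 GR-only and 1 NCOR1-only sites.

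Lipogenic genes held joint sites at 18 of 20. The exceptions were Srebf1, the gene of the lipogenic factor SREBP-1, with 4 NCOR1-only sites of up to 65.0 tags, and Fasn, the gene of fatty acid synthase, with 1 GR-only and 3 NCOR1-only sites. Fatty acid oxidation and ketogenesis genes held joint sites at 15 of 20, and Ehhadh had 1 GR-only and 3 NCOR1-only sites. Acute phase and inflammation genes held joint sites at 18 of 19, Lcn2 being the exception, and NCOR1-only sites at 9 of 19, beside 39.8% of all genes. Nfkbia, the gene of the NF-kappa-B inhibitor, had a joint site of 183.2 GR tags.

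The clock list split by member: 15 of 21 held joint sites, beside 35.5% of all genes, and 18 of 21 held NCOR1-only sites, beside 39.8%. Per1, a glucocorticoid-responsive clock gene, had 1 joint site of 314.9 GR tags and 30.3 NCOR1 tags, 1 GR-only site of 183.7 tags and no NCOR1-only site. Arntl, which encodes the activator BMAL1 and is a known REV-ERB target, had no joint site, 2 GR-only sites of up to 9.49 tags and 11 NCOR1-only sites of up to 108.6 tags. Nr1d1, which encodes REV-ERB alpha, had 1 joint and 3 NCOR1-only sites, the 3 NCOR1-only sites holding 55.1 to 71.5 tags. Part of this NCOR1 signal was also called in dKO livers given vehicle, with 93.9 tags at the strongest Arntl site and 65.5 at the strongest NCOR1-only site of Nr1d1. Tef, a clock output gene, had 3 GR-only and 2 NCOR1-only sites and no joint one.

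Nuclear receptor genes held joint sites at 21 of 28, beside 35.5% of all genes, and NCOR1-only sites at 26 of 28, beside 39.8%. Their median body was 60.0 kb, against 17.2 kb over all genes. Thra, the gene of thyroid hormone receptor alpha, had 2 NCOR1-only sites of up to 100 tags and 2 GR-only sites, whereas Thrb, the receptor beta gene, had 12 joint sites. Of the corepressor complex itself, Ncor1, Tbl1x and Tbl1xr1 held joint sites, Hdac3 had 1 GR-only and 1 NCOR1-only site, and Gps2 had none. Ribosomal protein genes, which served as a list of short and broadly active genes, held joint sites at 6 of 18, or 33.3%, which is near the 35.5% of all genes. They held NCOR1-only sites at 12 of 18, beside 39.8% of all genes.

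Hepatocyte genes held joint sites at 18 of 21, with Alb, the albumin gene, having one of 203.3 GR tags. Apoa1 was assigned no site under the closest-body rule. Kupffer cell and leukocyte markers held joint sites at 0 of 12, GR-only sites at 5 of 12 and NCOR1-only sites at 2 of 12, beside 35.5%, 41.7% and 39.8% of all genes in the same order. The GR-only count thus equals the share over all genes. Of them Ptprc had a GR-only site of 76.9 tags and the rest had at most 12.3 tags. Neuronal genes held joint sites at 2 of 8 and GR-only sites at 7 of 8, beside 35.5% and 41.7% of all genes, Rbfox3 having the strongest with 36 tags. Endothelial, stellate and cholangiocyte markers held joint sites at 8 of 18 and GR-only sites at 15 of 18, beside the same shares, and Stab2, a sinusoidal endothelial marker, had 7 joint and 7 GR-only sites. Body length varied between lists, with medians from 3.81 kb in ribosomal protein genes to 141 kb in the corepressor complex, beside 17.2 kb over all genes, and its part in the counts was not tested.

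**Figure D5:**
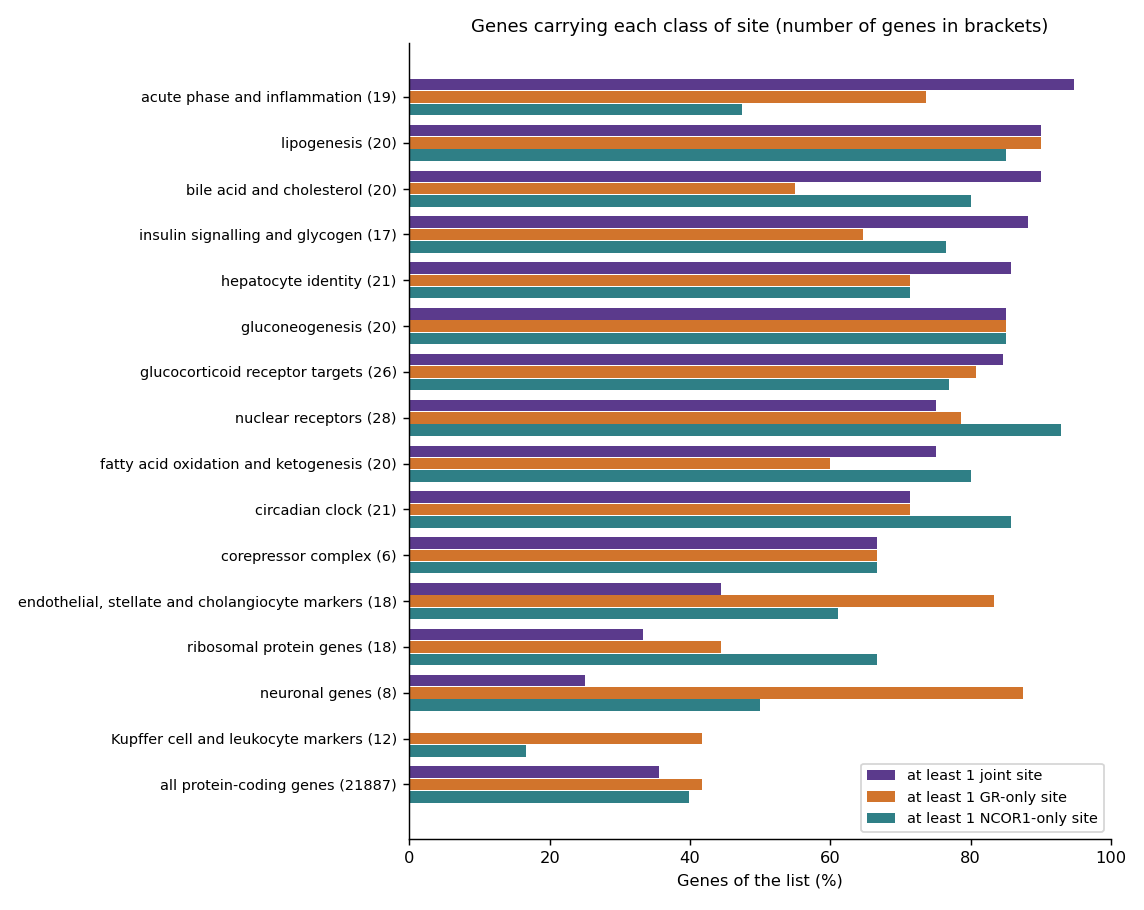
Percentage of the genes of each list that carried at least 1 joint, GR-only or NCOR1-only site, with the number of genes in brackets and all protein-coding genes at the bottom. Joint sites were carried by 94.7% of acute phase and inflammation genes and by 0 of 12 Kupffer cell and leukocyte markers, beside 35.5% of all genes.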

How the data were processed

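ChIP-seq of GR and NCOR1 in mouse liver was analysed from deposited peak lists. The submitters' processing notes name Trim Galore 0.6.4, BWA 0.7.17, HOMER 4.11, bedtools 2.29.2 and mm10. Per the file headers, findPeaks called 200 bp peaks against the input on tag directories pooled per group, at 4.0-fold over input, 4.0-fold over the local 10 kb, p-values of at most 0.0001 for both and at least 400 bp between peaks. The deposited normalized tag count is a signal scaled to 10 M tags, and the deposited score is the authors' findPeaks score. The deposited fold over input and over the local region is a ratio, and the deposited p-values were not used beyond the authors' threshold.

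Overlaps, ends included, were computed with Python 3.11.15, numpy 2.4.6, pandas 2.3.3 and scipy 1.17.1, checked with bedtools 2.31.1 (19989 joint peaks in either direction) and tested on simulated peaks. Peak centres were set against 21887 protein-coding gene bodies and RefSeq starts (GRCm38.p6). Sites in other lists needed 1 bp of overlap. With pooled lists there was no test, and shares carry 95% Clopper-Pearson intervals.

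Named sites were the 10 joint sites with the smallest rank sum, the 8 strongest GR-only and NCOR1-only sites, the 5 most discordant joint sites on either side, the genes with most sites, up to 4 leaders of each class per gene list, 18 loci, and the pairs at the edge of the overlap rule. List members without a joint site and the Stab2, Rbfox3, Cebpd, Mt1 and Mt2 counts were added after their values were seen. Members and lists were chosen with earlier results of these data known. Alternatives were the overlap, list length, fold thresholds, NCOR1 peaks also called in dKO livers, the score, and the gene rule. 1 gene of the corepressor list is not reported here.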

Additional observations from a re-analysis of the deposited data

How the results depend on the processing

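No paired analysis was possible because each list pools its libraries; for the same reason no library could be left out. With an overlap of at least 100 bp the joint share was 44.9% of GR and 48.6% of NCOR1 peaks, the median offset 25 bp, and the share within 1000 bp of a gene end 11.4% of joint and 13.3% of GR-only sites. With centres within 400 bp the joint shares were 51.6% of GR and 56.0% of NCOR1 peaks. With at least 8-fold over input in both lists they were 40.6% and 47.8%, with 11539 joint sites, an offset of 25 bp and a Spearman correlation of 0.56. The gene-end shares were then 9.19% of joint, 11.4% of GR-only and 18.2% of NCOR1-only sites. With at least 8-fold over the local 10 kb the joint shares were 31.2% of GR and 43.4% of NCOR1 peaks, with 6718 joint sites at 3777 genes, an offset of 23.0 bp and a Spearman correlation of 0.50. The gene-end shares were then 6.16% of joint, 10.4% of GR-only and 15.1% of NCOR1-only sites, so joint and GR-only sites no longer had like shares. With lists of equal length the joint share was 50.2% of either list, the Spearman correlation 0.50 and the GR-only gene-end share 12.9%. Without NCOR1 peaks that the dKO vehicle list held, 38.1% of GR peaks were joint and the offset was 27 bp. GR peaks whose NCOR1 peak was left out then counted as GR-only, which made 25275 GR-only sites. The gene-end shares were 9.06% of joint, 14.5% of GR-only and 17.2% of NCOR1-only sites. Counting all genes of the table gave 18.0% of joint, 17.0% of GR-only and 27.6% of NCOR1-only sites. The Spearman correlation was 0.55 with the findPeaks score and 0.53 at offsets of at most 50 bp.

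Further alternatives were chosen after seeing the data. The share of sites with more GR tags under dexamethasone was 82.6% of joint and 34.5% of GR-only sites at 8-fold over input, 88.4% and 35.9% at 8-fold over the local region, 79.4% and 26.4% away from gene ends, and 80.7% and 27.8% after dividing each list by its median. The share within 1000 bp of a start was 9.65% of joint, 10.9% of GR-only and 18.1% of NCOR1-only sites at 8-fold over input, and 6.71%, 9.73% and 15% at 8-fold over the local region. The remaining 29 of 81 recomputed values stayed within the interval, or within 1.5 times the count. The joint share thus depends on the fold threshold, whereas NCOR1-only sites kept the highest gene-end share in each alternative run. The cause of these moves was not tested. Depth limits the calling of peaks near 15 or 16 tags, so a site called for one protein alone may hold the other below threshold.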

Other observations

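The X chromosome had a lower joint share than any autosome. It held 277 joint, 598 GR-only and 337 NCOR1-only sites, so 31.7% of its GR peaks were joint, against 45.4 to 52.6% on the autosomes. Of its NCOR1 peaks 45.1% were joint, against 48.5 to 55.5% on the autosomes.

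A small set of GR-only sites stood far above their surroundings. Fold over the local region exceeded 100 at 27 of 20864 GR-only sites and at 1 of 19989 joint sites. The 5 highest with a gene nearby, outside chromosome 18, were picked after their values were seen and lay at Slc4a10, Frmpd3, Lrriq1, Cdh23 and Dpp10. The Lrriq1 site, on chromosome 10 from 103290713 to 103290913 (mm10), had 164.8 GR tags under dexamethasone and 243.7 under vehicle in dKO livers, and 177.2 under dexamethasone and 256.5 under vehicle in control livers. The Slc4a10 site had 117.7 tags under dexamethasone and 199.1 under vehicle in control livers. All 5 had more GR tags under vehicle than under dexamethasone in both genotypes.

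Distances were also taken from each single site to the nearest peak of the other protein, whether joint or single. An NCOR1 peak had its centre within 10 kb of 45.0% of GR-only sites, and a GR peak within 10 kb of 61.1% of NCOR1-only sites, with median distances of 12.7 kb for GR-only and 6.63 kb for NCOR1-only sites. At Zbtb16, the gene body held a GR-only site of 233.3 tags, an NCOR1-only site of 163.9 tags and a joint site of 547.6 GR tags within the same gene.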
